A study of Mus musculus with 6 samples.

Results

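The acyl-CoA thioesterases are the enzymes that split acyl-CoA into a free fatty acid and coenzyme A, the reverse of the activation step that acyl-CoA synthetases carry out. The 9 genes described here, Acot1, Acot2, Acot3, Acot4, Acot7, Acot8, Acot9, Acot11 and Acot13, were taken by symbol from the 46095 genes of the deposited FPKM table, with no cutoff on level. The family was selected on earlier FPKM results of this same comparison, the higher Acot2 value among them, so their values describe these 6 libraries and support nothing further. The study measured messenger RNA in 3T3-L1 cells, a line from mouse embryo fibroblasts that stores fat after hormonal induction in culture. Of 6 samples, 3 received 0.125 μg/mL of flavonoids from the plant Smilax glabra and 3 were left untreated as controls, and all were 3T3-L1 cells taken at day 8 after differentiation and labelled adipocytes. The labels do not say whether replicates came from separate cultures, so a p here speaks only of how these samples scatter, and that scatter may be technical.

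Thioesterases hold down the pool of acyl-CoA in each compartment and so meet fatty acids on their way to oxidation, storage and signalling. Type I enzymes (Acot1 to Acot4 among those described) share an alpha/beta hydrolase fold and lie side by side in a gene cluster, though their products do not all share a compartment. ACOT1 is cytosolic, ACOT2 sits in the mitochondrial matrix, and the mouse proteins ACOT3 and ACOT4 are peroxisomal. Type II enzymes (Acot7, Acot8, Acot9, Acot11 and Acot13) have an unrelated hotdog fold. In liver and heart several Acot genes are known targets of PPAR nuclear receptors, which respond to fatty acids.

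All positions are GRCm38, the assembly that mm10 denotes. In the GENCODE M21 annotation Acot2 (chr12:83987861-83993873), Acot1 (chr12:84009490-84018371), Acot4 (chr12:84038379-84048601) and Acot3 (chr12:84052144-84060402) follow each other on the plus strand. The other 5 are scattered, with Acot7 (chr4:152178134-152271855) and Acot11 (chr4:106744555-106804998) on chromosome 4, Acot8 (chr2:164792765-164804882), Acot13 (chr13:24817948-24831540) and Acot9 (chrX:155262443-155297654).

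Because Acot2 and Acot1 are close copies, their coding sequences were compared first, from 1 GENCODE transcript of each. The coding part of Acot2 has 1359 bases and that of Acot1 has 1257, without the stop codon. Acot2 has 123 more coding bases, or 41 codons, at its start, the end of the protein that carries the signal for entry into mitochondria. Those extra bases are shown in capitals, and the lower case that follows pairs with the start of Acot1.
Acot2 coding bases 1 to 168: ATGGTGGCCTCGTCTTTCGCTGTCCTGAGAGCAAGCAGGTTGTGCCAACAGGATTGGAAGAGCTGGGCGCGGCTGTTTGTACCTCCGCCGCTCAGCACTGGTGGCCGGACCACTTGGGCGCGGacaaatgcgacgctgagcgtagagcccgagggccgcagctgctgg
Acot1 coding bases 1 to 45: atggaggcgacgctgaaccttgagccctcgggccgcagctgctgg
Beyond that start, 1178 of 1236 paired coding bases were identical (95.31%). The differences were uneven. Both ends of the paired bases were left out of the search for the stretch with the most differences. Between them, the 90 paired bases with the most differences held 14, shown in capitals, and fragments from such a stretch can be told apart.
Acot2 coding bases 920 to 1009: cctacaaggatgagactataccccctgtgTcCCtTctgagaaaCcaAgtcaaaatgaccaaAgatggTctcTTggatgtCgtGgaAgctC
Acot1 coding bases 797 to 886: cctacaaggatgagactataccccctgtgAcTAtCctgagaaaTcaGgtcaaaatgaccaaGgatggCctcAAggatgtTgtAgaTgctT
Directly after it came the longest identical run, 273 bases, from which a short read cannot be assigned to either gene.
Acot2 and Acot1, Acot2 coding bases 1010 to 1282: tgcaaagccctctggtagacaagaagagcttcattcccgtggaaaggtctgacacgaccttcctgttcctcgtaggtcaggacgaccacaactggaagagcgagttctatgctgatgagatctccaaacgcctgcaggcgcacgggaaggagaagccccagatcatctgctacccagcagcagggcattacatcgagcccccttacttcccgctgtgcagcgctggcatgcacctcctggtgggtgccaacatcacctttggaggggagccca
Over the whole transcripts, 527 of the 2147 windows of 50 bases in Acot2 (24.5%) occurred unchanged in Acot1, 359 of 2097 windows of 100 bases (17.1%) and 209 of 2047 windows of 150 bases (10.2%). The sources used here give neither the read length nor the treatment of reads that match both genes. Acot2 shared far less with Acot4 (83 windows of 50 bases) and Acot3 (31 windows), and with neither any window of 100 bases.

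The sequences before the start sites are shown because Acot2 passed the test between the groups and its neighbour Acot1 did not. The 250 bases before each RefSeq start site (GRCm38.p6, plus strand) are printed with matches to the motifs listed after them in capitals. The RefSeq start of Acot1 lies slightly inside the GENCODE gene.
Acot2, chr12:83987611-83987860: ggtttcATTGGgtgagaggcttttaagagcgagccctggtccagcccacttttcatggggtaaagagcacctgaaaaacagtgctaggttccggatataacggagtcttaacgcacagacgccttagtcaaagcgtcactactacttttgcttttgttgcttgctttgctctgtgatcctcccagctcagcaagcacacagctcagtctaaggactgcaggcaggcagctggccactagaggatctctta
Acot1, chr12:84009252-84009501: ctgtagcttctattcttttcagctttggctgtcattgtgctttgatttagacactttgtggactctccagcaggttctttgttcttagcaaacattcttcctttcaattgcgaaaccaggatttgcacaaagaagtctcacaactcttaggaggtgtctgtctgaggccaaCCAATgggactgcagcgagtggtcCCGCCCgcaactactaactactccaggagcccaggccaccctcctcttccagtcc
In a global alignment with gaps 53.2% of the 250 bases were identical between these 2 stretches. The 28 pairs among the 8 members with a RefSeq promoter entry, this pair included and with the first entry of each, lay between 47.2% and 54.8%. The 95.31% of coding bases came from pairing without gaps, so the 2 shares are different measures. The motifs were searched on both strands in the 250 bases. Some members, among them Acot3 and Acot11, have more than 1 RefSeq promoter entry, and a match in any entry was counted. The shares of all promoters are per entry, so such members had more room for a match. CCAAT occurred in Acot2 and Acot1, in Acot3, Acot4, Acot8, Acot9 and Acot11, and in 33.8% of all 32851 promoters. GGGCGG occurred in Acot1, Acot7, Acot8, Acot9 and Acot11 but not in Acot2 (32.7% of all). The nuclear receptor half-site AGGTCA occurred in Acot4 alone among the 8 (14.0% of all). A pair of these half-sites spaced by 1 base, as PPAR and RXR bind (0.0335% of all, and each match also holds the half-site), and TGATGNAA (3.45% of all), the composite bound by C/EBP and ATF proteins, occurred in none of the 8. TATAAA occurred in Acot4 and Acot9 (12.4% of all). A missing match says only that these letters are not in this window.

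FPKM is a number of fragments divided by transcript length and by the depth of the library. Whole fragments, worked back from the steps between FPKM values, totalled 24621562 to 26355863 per flavonoid library and 21952064 to 25083868 per untreated library. Correlations of log2 values were 0.987 to 0.995 within the flavonoid group and 0.967 to 0.989 within the untreated group. Between groups they were 0.955 to 0.981. Untreated replicates 1 and 3, at 0.967, were thus less alike than most pairs taken across the groups. Untreated replicate 3 stood apart. Its FPKM values summed to 424479, against 477408 to 524930 in the other 5 libraries. Of 16 markers of mature adipocytes 8 averaged under 1 FPKM, among them Adipoq, Plin1, Cd36 and Slc2a4. Of the 8 tested, 6 had a higher mean with flavonoids and 2 a lower one, and 0 passed the adjusted threshold in limma. Lpl averaged 262 FPKM with flavonoids and 163 FPKM untreated, and Fabp4 169.7 FPKM with flavonoids and 219 FPKM untreated. The summed level of these 16 was 416 to 576 FPKM with flavonoids and 438 to 460 FPKM untreated. The 12 preadipocyte and fibroblast markers summed to 4939 to 5448 FPKM with flavonoids and 6570 to 7091 FPKM untreated, with Cd34 averaging under 1 FPKM. Only Pdgfrb of these had a higher mean with flavonoids (104 against 94.1 FPKM). The rest had a lower one, among them Lum (2.49 against 10.8 FPKM) and Dcn (316 against 671 FPKM). Markers of 4 other cell types were near 0. Summed levels with flavonoids and untreated were 3.14 to 3.80 and 3.25 to 4.48 FPKM for 7 macrophage genes, and at most 0.105 and 0.147 FPKM for 5 endothelial genes. They were 0.768 to 1.78 and 2.16 to 2.81 FPKM for 11 muscle genes, and 2.01 to 2.64 and 0.938 to 1.81 FPKM for 7 brown adipocyte genes. Of the muscle genes only Actn3 averaged at least 1 FPKM (1.04 with flavonoids, 2.29 untreated). Of the brown adipocyte genes only Ppargc1a did (1.65 with flavonoids, 0.700 untreated). Ptprc, Cdh5, Myod1 and Ucp1, which define the 4 types, were listed at 0. The part of these marker differences in the results that follow was not tested. In RNA from a whole culture, fewer cells of a type and less RNA per cell cannot be told apart.

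Of the 9 genes, 6 averaged at least 1 FPKM over the 6 libraries and entered the test, and Acot3, Acot4 and Acot11 did not. The test was limma on log2(FPKM + 1), fitted over 11464 genes with Benjamini-Hochberg adjustment at 0.05. Acot2 alone of the 6 was past the threshold, and it was higher with flavonoids. Over all tested genes 9.99% were past it, with 4.86% higher and 5.13% lower. The 3 flavonoid values lay wholly above the 3 untreated values for Acot2, Acot7 and Acot13, or 3 of the 6, where 34.3% of all tested genes separated in either direction, 17.0% this way and 17.3% the other way. The median fitted log2 change of the 6 was 0.19, beside -0.02 for all tested genes. The number of calls over all genes depended on the libraries. It was 1145 with all of them and moved by more than 1.5 times without untreated replicate 2 (146), flavonoids replicate 1 (213), flavonoids replicate 2 (360) and flavonoids replicate 3 (524), while without untreated replicate 1 it was 1709 and without untreated replicate 3 it was 1361. Acot2 was past the threshold in each of these 6 fits.

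**Figure D1:**
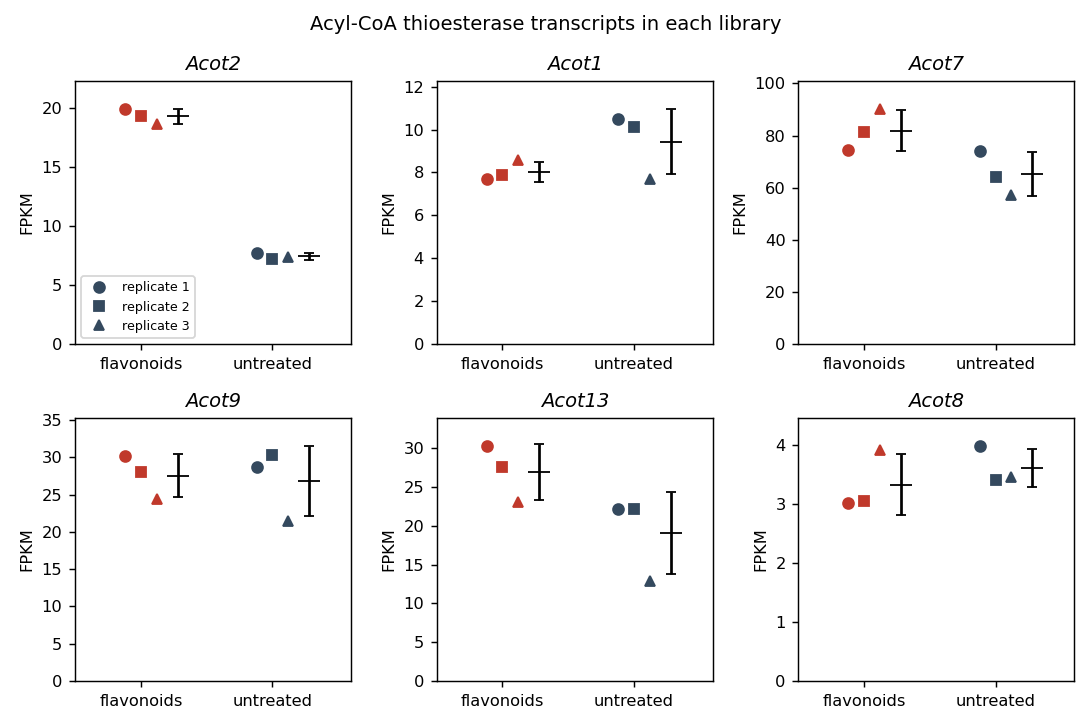
FPKM of the 6 thioesterase genes that averaged at least 1 FPKM, in each of 3 flavonoid (red) and 3 untreated (dark) libraries, with a separate axis from 0 for each gene. Marker shape gives the replicate, and the black bar and whiskers give the mean and SD. Acot2 sits at 18.6 to 19.9 FPKM with flavonoids and at 7.17 to 7.74 FPKM untreated, while Acot1, Acot9 and Acot8 overlap between groups.

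Among the mitochondrial enzymes, Acot2 had the largest change. ACOT2 hydrolyses long-chain acyl-CoA inside the mitochondrion. It had 19.9, 19.3 and 18.6 FPKM in flavonoid replicates 1, 2 and 3, from 1094, 1125 and 1016 fragments, against 7.74, 7.17 and 7.39 FPKM in the untreated replicates, from 376, 369 and 411 fragments. Both groups were tight and far apart. The means were 19.3 ± 0.619 FPKM with flavonoids and 7.43 ± 0.285 FPKM untreated (SD, n = 3 each), a 2.59-fold higher mean. The fitted log2 change was 1.26 (SE 0.11, 95% interval 1.02 to 1.51), which understates slightly since 1 FPKM is added before the log. Over 19 alternative settings it stayed between 0.96 (a pseudocount of 5 FPKM) and 1.37 (voom on the recovered fragments), past the threshold in all 19. Untreated replicate 3, the library that stood apart, was between the other 2 untreated libraries for Acot2 in FPKM and above them in TPM. In TPM, Acot2 had 40.1, 38.9 and 38.1 with flavonoids and 14.7, 15.0 and 17.4 untreated, again without overlap.

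Acot13, which encodes a small hotdog thioesterase (also called THEM2) associated with mitochondria, was higher on average with flavonoids but more scattered. It had 30.3, 27.5 and 23.1 FPKM with flavonoids, from 393 to 520 fragments, against 22.1, 22.2 and 12.9 FPKM untreated, from 224 to 356 fragments. The groups did not overlap, with flavonoid replicate 3 less than 1 FPKM above the highest untreated library, and untreated replicate 3 far below the rest. The fitted log2 change was 0.51 (SE 0.21, 95% interval 0.04 to 0.98) and was not past the threshold. Without untreated replicate 3 it was 0.27. With each library's trend over gene length removed it was 0.46 and past the threshold, also with the replicate block. Of all genes, 21.9% were past it then. On the TPM scale, in which every library has the same sum, Acot13 had 61.1, 55.6 and 47.3 with flavonoids and 42.1, 46.5 and 30.4 untreated.

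Acot9, the third mitochondrial gene, encodes a thioesterase of broad chain length. It had 30.2, 28.0 and 24.4 FPKM with flavonoids, from 1095 to 1366 fragments, against 28.7, 30.3 and 21.5 FPKM untreated, from 983 to 1283 fragments. The groups overlapped fully. The log2 change was 0.05 (SE 0.15), with a 95% interval of -0.30 to 0.39 that leaves room for a moderate change either way, and its sign turned in 3 of 19 alternatives. Acot9 has a close copy elsewhere in the genome, Acot10, with which it shared 344 of 1703 windows of 50 bases (20.2%) and 16 of 1653 windows of 100 bases. Acot10 had 0.910, 0.810 and 0.499 FPKM with flavonoids, against 0.795, 0.723 and 0.876 FPKM untreated.

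Of the cytosolic enzymes, Acot7 was the most abundant member in every library. ACOT7 prefers long-chain acyl-CoA and is best known from neurons. It had 74.4, 81.2 and 90.1 FPKM with flavonoids, from 2801 to 3360 fragments, against 74.2, 64.2 and 57.2 FPKM untreated, from 2177 to 2469 fragments. The groups barely separated, since the lowest flavonoid library and the highest untreated one were almost level. The log2 change was 0.33 (SE 0.13, 95% interval 0.02 to 0.63) and was not past the threshold. Removal of the length trend took it past (log2 change 0.32), but not together with the replicate block. In TPM the nearest libraries of the 2 groups lay further apart, with 149.9, 164 and 184 with flavonoids and 141, 135 and 135 untreated. The fitted log2 change was smaller on that scale (0.27) and not past the threshold.

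Acot1, the cytosolic near-copy of Acot2, had a lower mean with flavonoids but overlapping groups. It had 7.69, 7.86 and 8.57 FPKM with flavonoids, from 300 to 331 fragments, against 10.5, 10.1 and 7.69 FPKM untreated, from 303 to 369 fragments. Untreated replicate 3 lay among the flavonoid libraries, and the other 2 untreated libraries above them. The log2 change was -0.20 (SE 0.14, 95% interval -0.52 to 0.13), not past the threshold in any of 19 alternatives, and it was -0.32 without untreated replicate 3. In TPM the groups did not overlap, at 15.5 to 17.5 with flavonoids and 18.1 to 21.2 untreated. Acot11, which encodes the brown fat-inducible thioesterase THEM1, was close to absent, at 7, 7 and 2 fragments with flavonoids and 5, 7 and 11 fragments untreated. That is at most 0.0649 FPKM, and no difference is detectable at this depth.

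**Figure D2:**
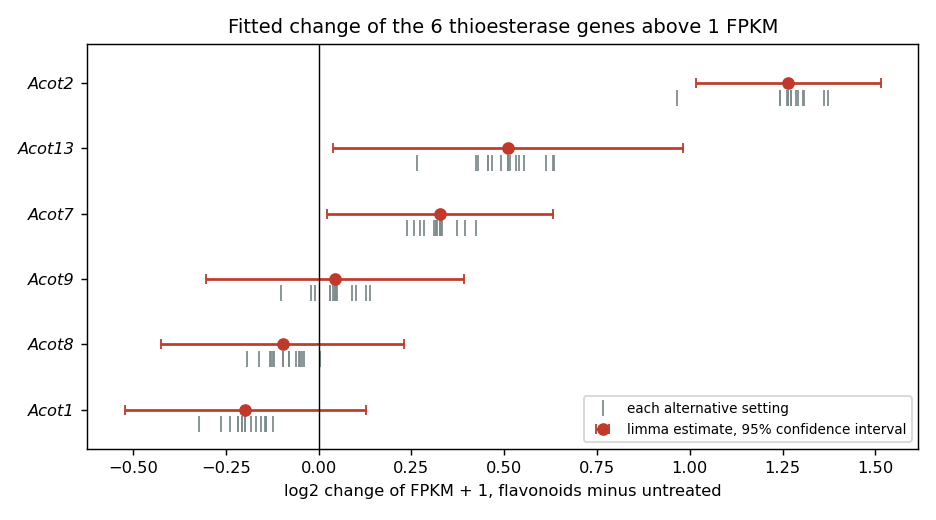
Fitted log2 change (flavonoids minus untreated, x axis) of the 6 genes tested, with the limma estimate and 95% confidence interval in red and the value under each alternative setting as a grey tick below it. All ticks of Acot2 lie between 0.96 and 1.37, and those of Acot8 and Acot9 fall on both sides of 0.

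Peroxisomal thioesterases were weak or unseen. Acot8, the enzyme of broadest substrate range in that compartment, had 3.01, 3.04 and 3.92 FPKM with flavonoids, from 197 to 254 fragments, against 3.98, 3.40 and 3.45 FPKM untreated, from 208 to 230 fragments. The groups overlapped, and the log2 change was -0.10 (SE 0.14, 95% interval -0.42 to 0.23). In the annotation 246 of the 1997 exon bases of Acot8 lie within exons of Snx21 on the opposite strand, and Snx21 had 18.4 to 23.2 FPKM with flavonoids and 23.0 to 26.8 FPKM untreated. The use of strand in counting is not given, so some Acot8 fragments may be those of its neighbour. Acot4 was listed at 0 in all 6 libraries, and Acot3 had 1 fragment in flavonoid replicate 2 and none elsewhere. By counting error alone, 0 fragments allow up to 3 per library. Acot3 and Acot4 also overlap other annotated genes in part.

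In level per kilobase, Acot7 was first and Acot8 last of the 6 in both groups. Mean FPKM ran Acot7, Acot9, Acot13, Acot2, Acot1, Acot8 with flavonoids (81.9, 27.5, 27.0, 19.3, 8.04 and 3.33) and Acot7, Acot9, Acot13, Acot1, Acot2, Acot8 untreated (65.2, 26.8, 19.1, 9.43, 7.43 and 3.61), followed by Acot11, Acot3 and Acot4. Acot9 and Acot13 overlapped in range in both groups. Within a library, Acot9 was above Acot13 in 2 of 3 flavonoid and 3 of 3 untreated libraries. Acot2 and Acot1 overlapped untreated and lay apart with flavonoids. The ratio of Acot2 to Acot1 within a library, which no scaling of libraries can alter, was 2.58, 2.45 and 2.18 with flavonoids and 0.738, 0.709 and 0.961 untreated. Its level, and so the order of these genes untreated, depends on the transcript lengths behind the FPKM. The FPKM steps imply 1569 bases for Acot1 and 2214 for Acot2, against 2272 and 2196 in the GENCODE transcripts. Untreated fragments summed to 1033 for Acot1 and 1156 for Acot2. On the log2 scale the ratio averaged 1.26 ± 0.127 with flavonoids and -0.33 ± 0.239 untreated (SD, n = 3 each), a difference of 1.59. The lengths are the same in every library, so this difference does not depend on them. Acot2 made up 11.5% ± 0.484 of the summed FPKM of the family with flavonoids and 5.72% ± 0.850 untreated, and Acot7 49.0% ± 4.23 with flavonoids and 49.7% ± 2.66 untreated. Any reads assigned across the pair would be shared between both values, so the ratio rests on the counting as deposited.

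**Figure D3:**
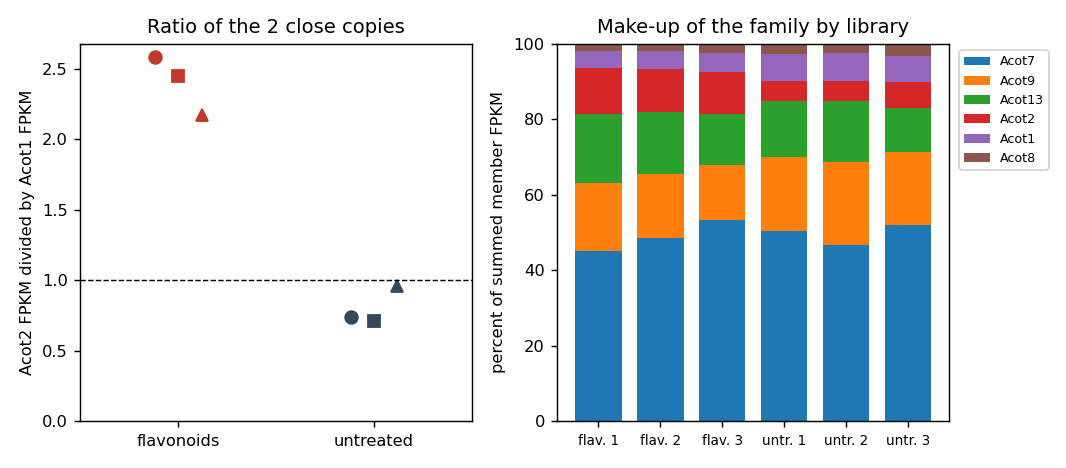
Left, FPKM of Acot2 divided by that of Acot1 in each flavonoid (red) and untreated (dark) library, with a dashed line at equality. The side of that line on which a ratio falls depends on the transcript lengths behind the FPKM. Right, the percent of the family's summed FPKM held by each of 6 members in each library, with 3 flavonoid bars left of 3 untreated bars. The ratio lies between 2.18 and 2.58 with flavonoids and between 0.709 and 0.961 untreated.

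The genes found by symbol around the 4 members on chromosome 12 did not pass the test or were too low for it. Heatr4, which lies just before Acot2, had at most 0.0240 FPKM with flavonoids and 0.0359 FPKM untreated. Beyond Acot3, Acot5 had 0, 1 and 8 fragments with flavonoids and none untreated, and Acot6 was listed at 0 throughout. Past these lies Dnal1, a dynein light chain gene, with 1.76 ± 0.463 FPKM with flavonoids and 2.36 ± 0.373 FPKM untreated (SD, n = 3 each), which was not called (limma adjusted p = 0.324). Numb, a regulator of Notch signalling on the other side, had 7.34 ± 0.118 FPKM with flavonoids and 8.39 ± 1.20 FPKM untreated (limma adjusted p = 0.470). Riox1 and the overlapping model Gm49366, also in this stretch, had no entry under these symbols and were not looked up under other names.

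**Figure D4:**
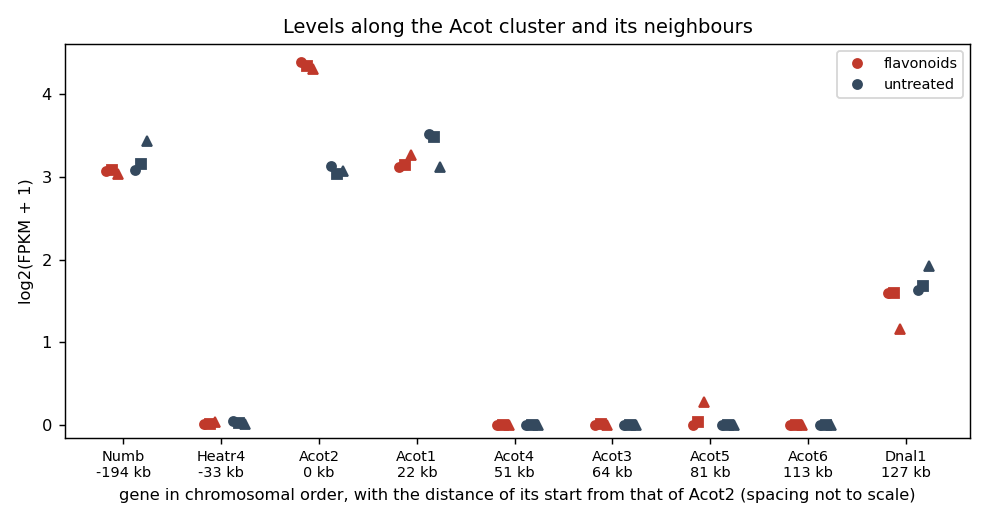
log2(FPKM + 1) of the chromosome 12 Acot genes and the nearest protein-coding neighbours in the table, in chromosomal order, with 3 flavonoid libraries (red) left of 3 untreated libraries (dark) for each gene. The labels give the distance from the start of Acot2 in kb, and spacing is not to scale. Acot2 is the gene of this stretch whose groups stand widest apart, and the 2 genes at 0 throughout are Acot4 and Acot6.

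Other genes that make, bind or break acyl-CoA were read from lists chosen, like the family, with earlier results known. Each count of calls stands beside the 9.99% of all genes called by limma and the 10.1% called by voom, and each count at an unadjusted p under 0.05 beside the 27.1% of all genes at that limit. Of 17 other thioesterases 9 were tested and 0 called (3 at an unadjusted p under 0.05 in limma, 0 called by voom). The most abundant were Ppt1, a lysosomal thioesterase, with 36.3 ± 1.28 FPKM with flavonoids and 30.8 ± 0.626 FPKM untreated, and Lypla2, which removes fatty acids from proteins, with 32.8 ± 3.05 FPKM with flavonoids and 29.9 ± 2.79 FPKM untreated (SD, n = 3 each, here and for the lists that follow). Them4 had 4.37, 4.16 and 2.61 FPKM with flavonoids, against 2.69, 3.11 and 1.83 FPKM untreated, and Acot12 and Them5 had at most 1 fragment in any library. Of 22 acyl-CoA synthetases 10 were tested, with 2 higher and 1 lower. Acsl5, which activates long-chain fatty acids, rose 1.58-fold to 20.1 ± 0.988 FPKM with flavonoids, against 12.7 ± 0.545 FPKM untreated (limma adjusted p = 0.0117). Acsf3, a mitochondrial malonyl-CoA synthetase, rose to 6.67 ± 0.0635 FPKM with flavonoids, against 4.54 ± 0.351 FPKM untreated (limma adjusted p = 0.0433). Acss2, which makes acetyl-CoA from acetate, fell to 9.46 ± 0.775 FPKM with flavonoids, against 14.0 ± 1.06 FPKM untreated (limma adjusted p = 0.0301).

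Genes of fatty acid oxidation were called or not depending on the length trend. Of 22 tested genes of mitochondrial oxidation and the carnitine shuttle 0 were called (5 at an unadjusted p under 0.05, 0 by voom), with a median log2 change of 0.11. With the length trend removed 4 were called (Cpt1a, Acadl, Acadm and Echs1), where 21.9% of all genes were. Etfb, an electron carrier subunit, had 200.1 ± 4.39 FPKM with flavonoids and 185 ± 52.2 FPKM untreated, and the dehydrogenase gene Hadh 68.3 ± 5.12 and 78.0 ± 11.4 FPKM. Of 20 tested peroxisomal genes 0 were called (6 at an unadjusted p under 0.05, 1 by voom), with a median log2 change of -0.09. With the length trend removed 2 were called (Amacr and Ech1). Ech1, an enoyl-CoA isomerase, had 168 ± 6.72 FPKM with flavonoids and 129 ± 23.9 FPKM untreated, and the thiolase gene Acaa1a 49.6 ± 1.31 and 48.2 ± 9.95 FPKM. Of 6 tested acyl-CoA binding proteins 0 were called (2 at an unadjusted p under 0.05, 0 by voom). With the length trend removed 1 was called, Acbd4, which had a lower mean with flavonoids (21.8 ± 0.889 against 28.9 ± 2.54 FPKM). The most abundant of the 6, Dbi, had 523.5 ± 39.5 FPKM with flavonoids and 592.7 ± 171 FPKM untreated, and Eci2 33.4 ± 1.36 and 37.3 ± 6.86 FPKM.

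Of 34 PPAR target genes outside the family 22 were tested, with 2 higher and 2 lower and a median log2 change of 0.09. At an unadjusted p under 0.05 in limma there were 11, beside 27.1% of all genes, and voom called 4. With the length trend removed 10 were called (Cpt1a, Plin2, Fabp4, Acadm, Acadl, Vnn1, Ech1, Lpl, Klf10 and Txnip), where 21.9% of all genes were. Of these, Fabp4, Acadm, Klf10 and Txnip had lower mean FPKM with flavonoids, and the others higher. Vnn1, a pantetheinase of coenzyme A breakdown, had a 3.19-fold higher mean with flavonoids (65.4 ± 9.03 against 20.5 ± 3.92 FPKM, limma adjusted p = 0.00232). Plin2, the lipid droplet coat, had a 2.53-fold higher mean (limma adjusted p = 0.0029). Klf10, a zinc finger factor, fell to 9.47 ± 0.784 FPKM with flavonoids, against 18.3 ± 1.76 FPKM untreated (limma adjusted p = 0.00591). Txnip, an inhibitor of thioredoxin, fell to 216 ± 22.3 FPKM with flavonoids, against 376 ± 18.5 FPKM untreated (limma adjusted p = 0.00914). Of 8 tested transcription factors and coactivators of oxidation 0 were called (1 at an unadjusted p under 0.05, 0 by voom). With the length trend removed 1 was called, Ppargc1a. It had 1.65 ± 0.482 FPKM with flavonoids and 0.700 ± 0.337 FPKM untreated (limma adjusted p = 0.0840 in the main fit). Rxra, the partner of PPARs, had 39.1 ± 4.41 FPKM with flavonoids and 43.4 ± 7.28 FPKM untreated. Counted once each, the 85 tested genes of the 7 lists had 4 higher and 3 lower in the main fit, or 8.24%, near the 9.99% of all genes.

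**Figure D5:**
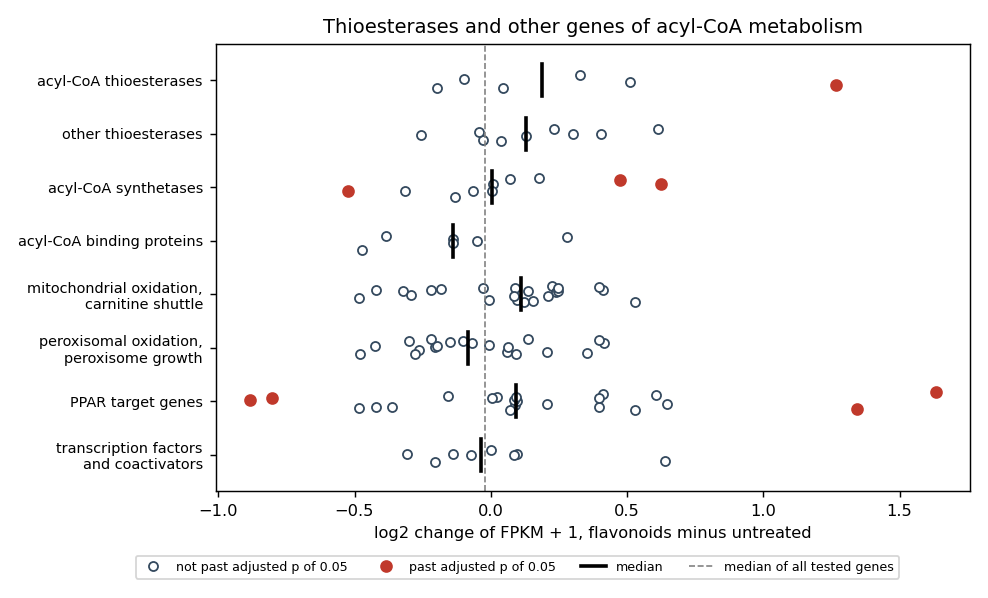
Fitted log2 change (flavonoids minus untreated, x axis) of each tested thioesterase gene of the family and each tested gene of 7 lists of acyl-CoA metabolism. Filled red points passed the adjusted threshold, open points did not, black bars are medians and the dashed line is the median of all tested genes, -0.02. Acot2 lies at 1.26, and in the other lists only Vnn1 and Plin2 among the called genes lie further to the right.

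The genes whose levels ran most like those of Acot2 over the 6 samples were found among 7341 named genes averaging at least 5 FPKM, by Pearson's r of log2(FPKM + 1). They were Myc (r = 0.999), Gpr146 (0.998), Phyhd1 (0.997), Chac1 (0.995) and Leprotl1 (0.995), and the most opposite were Islr (-0.998) and Trib2 (-0.998). Myc, a growth regulator, had 85.1, 81.1 and 76.7 FPKM with flavonoids, against 33.9, 32.0 and 31.9 FPKM untreated. With 2 tight groups of 3 such values follow from the group difference, and 288 of the 7341 genes had r above 0.95. The samples share their group, so this is a description of 6 libraries only.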

How the data were processed

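Messenger RNA of 3T3-L1 cells was measured in 3 flavonoid-treated and 3 untreated samples. The values are FPKM as the authors deposited them, in a single table of 46095 genes. Per the submitters' processing notes, FastQC and HISAT2 were used with the build mm10. Of the counting tool, the annotation and the use of strand, the sources used here say nothing.

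Groups were compared in limma 3.58.1 (R 4.3.3) on log2(FPKM + 1), letting the variance follow intensity, over the 11464 genes that averaged 1 FPKM or more. Two-sided p-values were adjusted by Benjamini and Hochberg and read at 0.05. Whole fragments were solved from the FPKM steps for all 22235 genes above 0, within 0.005 fragments, up to a divisor shared by all 6 numbers. Totals of 21952064 to 26355863 set the counting error and did not enter the main fit. The recovered fragments were used in the voom fit. Both steps were tested on simulated data. Members and lists were chosen with earlier results of these data known. The text names all members, up to 6 called genes per list by smallest adjusted p or else the 2 most abundant, the 3 nearest protein-coding genes on each side of the cluster, 6 further Acot and Them genes, and the 5 most and 2 least Acot2-like genes. Of the genes this rule names, 1 is not reported here. Alternatives covered scaling, pseudocount, filter, variance model, block, length trend, voom and leaving out each library. Sequences come from GENCODE M21 transcripts and, for 8 of 9 members, RefSeq promoters on GRCm38.p6 (Python 3.11.15, biopython 1.88).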

Additional observations from a re-analysis of the deposited data

How the results depend on the processing

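Acot2 kept its direction and its side of the threshold in all 19 alternatives, and Acot1 kept its direction in 19. The sign of Acot9 turned on the TPM scale (-0.01), without flavonoids replicate 1 (-0.02) and without untreated replicate 3 (-0.10; range without 1 library -0.10 to 0.14), and that of Acot8 with quantile normalization (0.0034). The cause was not tested. Members past the threshold, all higher, numbered 1 except with the length trend removed (3, with Acot7 and Acot13) and with its removal plus the replicate block (2, with Acot13). Over all genes there were 317 higher and 324 lower calls with no filter, where more genes are tested, and 1379 and 1131 with the length trend removed. Leaving out 1 library gave 65 to 876 higher and 81 to 833 lower. In the 7 lists together, 4 higher and 3 lower became 12 and 6 with the length trend removed, with or without the block, 5 lower on the TPM scale, 6 lower with quantile normalization, and 2 to 8 higher and 1 to 6 lower without 1 library. Under alternatives, 129 list medians moved by less than the spread between replicates and 4 by more.

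No sign was seen that the replicate numbers pair the samples. Deviations from the group means correlated at -0.143, -0.117 and -0.203 for numbers 1, 2 and 3, and no sample correlated best with its own number. With 3 libraries per group the deviations depend on each other, so this check cannot exclude a pairing. With the replicate block there were 220 higher and 237 lower calls, and 1106 and 911 with the length trend removed as well. The planned count test on recovered fragments was not run, since the deposited unit is FPKM, and voom on these fragments was used in its place. Acot8 has no value at a minimum mean of 5 FPKM. Depth limits Acot3, Acot4 and Acot11.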

Other observations

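A pair of genes outside the test showed wide gaps and were picked after their values were seen. Them7, a gene named as a member of the thioesterase superfamily, had 1, 1 and 0 fragments with flavonoids, against 16, 21 and 19 fragments untreated, with a mean under 1 FPKM over the 6 libraries. Acox2, a peroxisomal oxidase for branched-chain and bile acid intermediates, had 1.41, 0.943 and 0.856 FPKM with flavonoids, from 56 to 93 fragments, against 0.291, 0.291 and 0.210 FPKM untreated, from 14 to 18 fragments. Neither pair of groups overlapped. Both fell below the minimum mean of 1 FPKM and so have no test here.

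Nudt19 and Cpt1a were also picked after their values were seen. Nudt19, which hydrolyses coenzyme A and its esters in peroxisomes, had 7.76, 7.54 and 6.68 FPKM with flavonoids, against 5.62, 4.62 and 3.31 FPKM untreated, and was just short of the threshold (limma adjusted p = 0.0586). Cpt1a, the gate of fatty acid entry into mitochondria, had 38.9 ± 2.92 FPKM with flavonoids and 27.0 ± 5.41 FPKM untreated (SD, n = 3 each; limma adjusted p = 0.0645). With the length trend removed, both passed the threshold.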
